A study of Mus musculus with 8 samples.

Results

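The metallothionein genes Mt1, Mt2 and Mt3 and 6 zinc carrier genes (Slc30a1, Slc30a10, Slc39a1, Slc39a10, Slc39a12 and Slc39a14) were followed in sorted mouse astrocytes from cortical and subcortical tissue. They are 9 of the 55417 genes counted, matched by Ensembl gene identifier, and all 9 were among the 11781 genes with enough counts to be tested. All 4 mice were wild-type and 29 days old (P29), with mice 1 and 4 male and mice 2 and 3 female. Cortical and subcortical cells of every mouse were sequenced separately, which gave 4 libraries per region. Cells were sorted by flow cytometry with a gate not given in the sources used here. Levels are CPM, read counts scaled to a common library size, from libraries that read the 3′ ends of transcripts, so that a level does not grow with transcript length.

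Metallothioneins are small cysteine-rich proteins that bind zinc and copper and so hold a mobile pool of these metals in the cytosol. In the brain, astrocytes are a main site of metallothionein-1 and -2, while metallothionein-3 is enriched in the nervous system and is also made by neurons. Carriers of the SLC30 (ZnT) family move zinc or manganese out of the cytosol, and carriers of the SLC39 (ZIP) family move metals into it. The metal-responsive factor MTF-1 binds zinc and then short DNA sequences called metal response elements, and through them induces Mt1, Mt2 and Slc30a1. Slc39a10 is known as a gene that MTF-1 represses.

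Because Mt1, Mt2 and Slc30a1 are classic MTF-1 targets, their promoters are shown beside that of Slc39a12, the gene with the clearest difference between regions. The 250 bases before the annotated start are from RefSeq (GRCm38.p6, a different build from the GRCm39 named for the counts), which had an entry for 8 of the 9 genes (all but Slc39a14). Capitals mark each match to the core of the metal response element, searched as TGCACNC or TGCGCNC on both strands.
Mt1 (chr8:94178839-94179088, plus strand): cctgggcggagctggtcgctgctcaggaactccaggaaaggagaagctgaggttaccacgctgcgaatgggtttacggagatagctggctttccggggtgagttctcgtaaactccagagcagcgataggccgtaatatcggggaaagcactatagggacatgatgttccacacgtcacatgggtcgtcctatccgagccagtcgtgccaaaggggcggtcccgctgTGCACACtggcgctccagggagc
Mt2 (chr8:94172368-94172617, plus strand): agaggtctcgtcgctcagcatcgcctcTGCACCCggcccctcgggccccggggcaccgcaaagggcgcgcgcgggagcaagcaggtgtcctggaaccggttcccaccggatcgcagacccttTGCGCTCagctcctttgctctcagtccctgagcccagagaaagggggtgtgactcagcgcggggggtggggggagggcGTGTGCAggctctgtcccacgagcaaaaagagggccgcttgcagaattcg
Slc30a1 (chr1:191906531-191906780, plus strand): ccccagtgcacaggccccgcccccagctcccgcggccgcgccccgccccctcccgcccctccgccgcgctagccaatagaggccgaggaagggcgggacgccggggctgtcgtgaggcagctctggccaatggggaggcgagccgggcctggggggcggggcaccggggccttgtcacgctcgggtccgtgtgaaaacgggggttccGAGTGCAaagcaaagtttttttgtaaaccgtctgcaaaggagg
Slc39a12 (chr2:14388148-14388397, plus strand): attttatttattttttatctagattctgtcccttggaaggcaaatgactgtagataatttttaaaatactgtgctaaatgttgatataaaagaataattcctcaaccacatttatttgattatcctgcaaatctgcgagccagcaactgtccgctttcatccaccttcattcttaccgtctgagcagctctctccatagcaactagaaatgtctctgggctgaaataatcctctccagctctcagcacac
The other 2 matches of Mt1 lie in the 30 bases from its start onward, which follow.
Mt1, from the start: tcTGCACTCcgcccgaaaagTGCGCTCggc

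In the whole windows of 300 bases, which run from 250 before to 50 after the start, Mt2 held 4 matches, Mt1 and Slc30a10 held 3 each, Slc30a1 held 2 and Mt3 held 1. In Slc30a10, 2 of the 3 overlap as the opposite strands of a palindrome. The windows of Slc39a1, Slc39a10 and Slc39a12 held 0. For comparison, 25.7% of the 32851 RefSeq promoter windows of the same length held at least 1 match, 7.1% at least 2, 2.0% at least 3 and 0.5% at least 4. A match describes the letters only. Counts and positions refer to the annotated starts used, which for Mt1 was 1 window. Sequence around any other start was not searched, so a count is not that of all metal response elements of a gene.

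Gene counts summed to 3.54 to 4.06 M in cortical and 2.48 to 3.83 M in subcortical libraries. All 12 astrocyte markers were detected and tested, with 3 called higher and 2 lower in cortical cells, and their summed level was 28400 to 31000 CPM in cortical against 21800 to 23900 CPM in subcortical libraries. Markers of other cells were far lower, and the oligodendrocyte lineage was the highest of them except in cortical mouse 2, where mural markers were higher. The 8 oligodendrocyte lineage markers (0 of them without counts) summed to 792 to 1280 CPM in the cortical group and 2120 to 5340 CPM in the subcortical group, and 5 of 7 tested were called lower in cortical cells. Microglia markers summed to 147 to 333 and 109 to 187 CPM, and 3 of 6 tested (Cx3cr1, C1qa and Csf1r) were called higher in cortical cells by edgeR and 4 by DESeq2. Of the list, 0 were called without cortical mouse 2, cortical mouse 4 or subcortical mouse 3, and 1 without cortical mouse 1 or subcortical mouse 1 and with limma-voom. Neuronal markers summed to 96.6 to 172 CPM in cortical cells and 72.3 to 122 CPM in subcortical cells. Mural markers summed to 454 to 1020 and 319 to 1170 CPM, endothelial markers to at most 12.2 and 21.2 CPM and fibroblast markers to at most 33.3 and 75 CPM, and of all these markers only the fibroblast gene Lum had no counts. Ependymal and choroid plexus markers summed to 61.5 to 118 CPM in 7 libraries and to 726 CPM in subcortical mouse 3. Within this list Ttr, which was not tested, had the largest subcortical mean and spread (152.9 ± 303.4 CPM, SD, n = 4). Of the 4 tested, 1 was called lower in cortical cells, Foxj1 at 12.1 against 33.24 CPM (edgeR adjusted p = 0.0042). In such sorted samples a smaller share of expressing cells and less RNA per cell cannot be told apart.

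Mt1 and Mt2 were among the most abundant transcripts of these astrocytes in both regions. The mean of Mt1 over the 8 libraries was 4680 CPM and exceeded that of 99.9% of tested genes, and the mean of Mt2, 3010 CPM, exceeded 99.8%. Together the 3 metallothioneins took 0.77 to 0.93% of scaled cortical libraries and 0.60 to 0.81% of scaled subcortical ones. Below them, in the order of means over 8 libraries, came Slc39a12 at 355 ± 94.6, Slc30a10 at 159 ± 25.1, Mt3 at 140 ± 40.3, Slc30a1 at 134 ± 29.2, Slc39a1 at 55.5 ± 9.3, Slc39a10 at 21.3 ± 8.45 and Slc39a14 at 20.4 ± 5.46 CPM (SD, n = 8 libraries of 4 mice). Mt1 was above Mt2, Mt2 above Slc39a12 and Slc39a12 above Slc30a10 in all 8 libraries. Over both regions the ranges of Slc30a10, Mt3 and Slc30a1 overlapped, with each above the next in 5 of 8 libraries, as did those of Slc39a10 and Slc39a14. Within regions, Slc30a10 and Mt3 were each above Slc30a1 in 4 of 4 cortical libraries, while Mt3 was below it in 3 of 4 subcortical ones.

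The comparison of regions asked whether cortical and subcortical astrocytes differ in the genes that bind and move zinc. Of the 9 genes, 1 was called, Slc39a12, which was 1.52-fold higher in subcortical cells. Each of the 9 differed by less than 2-fold. At an adjusted p of 0.05 (edgeR, quasi-likelihood, Benjamini-Hochberg over all tested genes), 6.81% of all tested genes were called (3.42% higher and 3.39% lower in cortical cells), so that 1 in 9 is close to the background. The median log2 fold change, cortical minus subcortical, was 0.05 over the 9 genes and -0.01 over all tested genes. At an unadjusted p under 0.05 there were 5 of the 9 genes, 3 higher and 2 lower in cortical cells, where 17.4% of all tested genes had such a p. In 5 of the 9 genes all 4 mice differed in the same direction, 3 with cortical higher and 2 with cortical lower, against 13.3% and 13.1% of all tested genes.

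**Figure D1:**
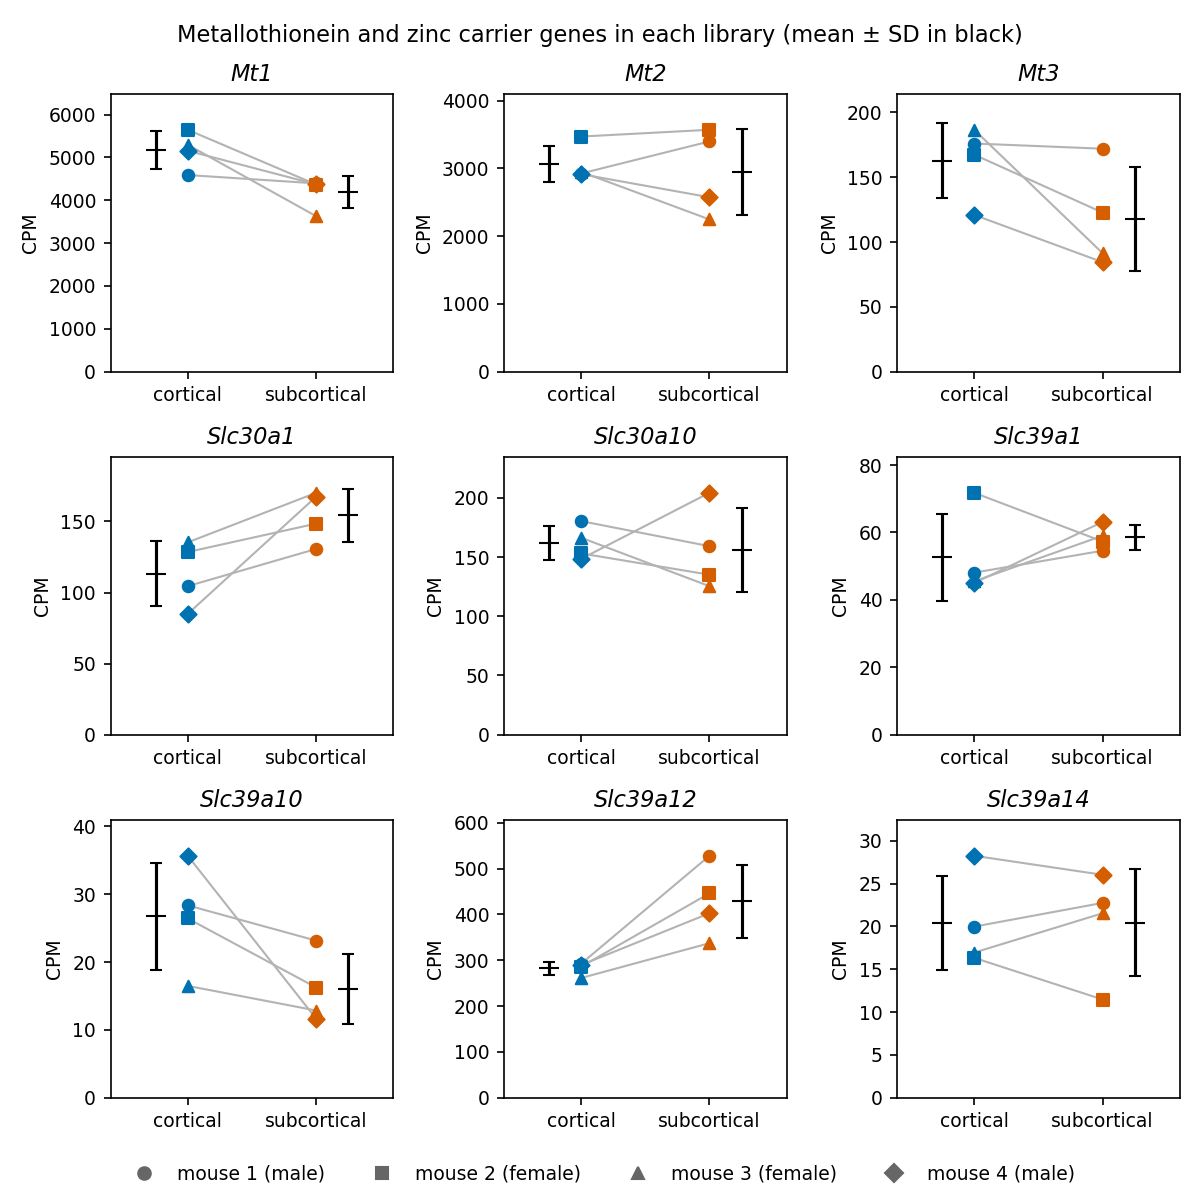
Level of each of the 9 genes (CPM, linear axis from 0) in each cortical and subcortical library, with grey lines joining the libraries of a mouse and black bars giving mean ± SD (n = 4). The 4 subcortical Slc39a12 values sit between 337.2 and 528 CPM, all above the cortical ones, while the 2 regions overlap for Mt2.

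Mt1 (ENSMUSG00000031765) stood at 4589, 5645, 5295 and 5156 CPM in the cortical libraries of mice 1 to 4 and at 4394, 4367, 3628 and 4371 CPM in their subcortical libraries. All cortical values lay above all subcortical ones, and mouse 3 held the lowest subcortical value. The regions did not overlap in 2 of the 9 genes, against 12.2% of all tested genes: in Mt1 with cortical higher (6.54% of all genes) and in Slc39a12 with cortical lower (5.64%). The means were 5171 ± 439.3 and 4190 ± 375.2 CPM (SD, n = 4), a log2 fold change of 0.30 (SE 0.14, 95% interval 0.02 to 0.59) that was not called (edgeR adjusted p = 0.25). On raw library totals, which place the median of all tested genes at 0.19 in place of -0.01, the log2 fold change was 0.51, or 0.32 above that median, and was called (edgeR adjusted p = 0.016). The astrocyte marker sums given above were likewise higher in all cortical libraries. Their largest differences in CPM were those of Slc1a2 (9645 in cortical against 5487 in subcortical cells) and Slc1a3 (5778 against 2393). The 2 markers called lower in cortical cells were Aqp4 (480.2 against 1041 CPM) and Ndrg2 (2247 against 3594 CPM), so the sum does not stand for all 12 markers. The part of the astrocyte markers in the Mt1 values was not tested.

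Mt2 (ENSMUSG00000031762), the neighbour of Mt1 on chromosome 8, stood at 2924, 3470, 2950 and 2915 CPM in cortical and at 3398, 3570, 2247 and 2574 CPM in subcortical libraries of mice 1 to 4. The cortical values lay within the subcortical range, with cortical higher in mice 3 and 4 and lower in mice 1 and 2. Its log2 fold change was 0.06 (SE 0.16, edgeR adjusted p = 0.92), with a 95% interval of -0.28 to 0.39. The ratio of Mt1 to Mt2, which does not depend on library scaling, was 1.57 to 1.80 in cortical libraries and 1.29, 1.22, 1.61 and 1.70 in subcortical mice 1 to 4. It was lower in the subcortical library of every mouse, while the regions overlapped. The longest identical run between annotated transcripts of the 2 genes was 20 bases in a GRCm38 annotation.

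Mt3 (ENSMUSG00000031760), whose product is also known as growth inhibitory factor, was 1.5 to 2.3% of the metallothionein total in cortical and 1.2 to 2.2% in subcortical libraries. It stood at 176, 167.4, 186.6 and 120.9 CPM in cortical and at 172, 122.7, 91.33 and 84.44 CPM in subcortical mice 1 to 4. Cortical was higher in all 4 mice, by 0.03 on the log2 scale in mouse 1 and by 1.02 in mouse 3, and the regions overlapped. The log2 fold change of 0.47 (SE 0.22, 95% interval 0.02 to 0.92) was not called (edgeR adjusted p = 0.26), and on raw library totals it was 0.70, or 0.51 above the median of all genes, and was called (edgeR adjusted p = 0.045). Without subcortical mouse 1 it was 0.71 and without subcortical mouse 4 it was 0.34, neither called (edgeR adjusted p = 0.055 and 0.52). Neuronal markers, of which 10 were detected and 8 tested, had the overlapping sums given above, with 1 called higher and 1 lower by edgeR and 4 higher and 1 lower by DESeq2, and their part in the Mt3 values was not tested.

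Among the exporters, Slc30a1 (ENSMUSG00000037434), which encodes the zinc exporter of the plasma membrane, ran the other way from Mt1. It stood at 104.5, 128.5, 135.3 and 84.96 CPM in cortical and at 130.7, 148.5, 170.2 and 167.5 CPM in subcortical mice 1 to 4. Cortical levels were below subcortical ones within each of the 4 mice, most in mouse 4, but the lowest subcortical value lay below the highest cortical one. The log2 fold change was -0.45 (SE 0.19, 95% interval -0.83 to -0.06) and was not called (edgeR adjusted p = 0.20). On raw library totals it was -0.25, or -0.44 against the median of all genes (edgeR adjusted p = 0.56). On that scale cortical was higher in mouse 1 (119.8 against 116.7 CPM) and mouse 2 (136.5 against 125.2 CPM) and lower in mice 3 and 4. Slc30a10 (ENSMUSG00000026614), whose product is known mainly as a manganese exporter, stood at 180.4, 153.1, 166.4 and 148.4 CPM in cortical and at 159.2, 135.1, 125.4 and 204.3 CPM in subcortical mice 1 to 4. The highest and the lowest of its values were both subcortical. Its log2 fold change was 0.05 (SE 0.18, 95% interval -0.32 to 0.43, edgeR adjusted p = 0.93). Genes annotated on the opposite strand overlap Mt2, Slc30a1 and Slc30a10, but none covers the 3′ end of these genes. On the same strand, Gm28151 and Gm37393 overlap the importer gene Slc39a10 without covering its 3′ end. Their effect on its counts was not tested.

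Slc39a12 (ENSMUSG00000036949) had the highest level of the 4 listed importers in every library. Its product, ZIP12, is a zinc importer enriched in brain. It stood at 292.1, 285.8, 261.1 and 289.4 CPM in cortical and at 528, 446, 337.2 and 402.5 CPM in subcortical mice 1 to 4. All subcortical values were above all cortical ones, and the cortical values lay close together (282.1 ± 14.2 against 428.4 ± 80.05 CPM, SD, n = 4). The log2 fold change was -0.60 (SE 0.17, 95% interval -0.95 to -0.26, edgeR adjusted p = 0.027), with cortical lower in 4 of 4 mice by 0.37 to 0.85 on the log2 scale.

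The call of Slc39a12 was lost without cortical mouse 1, 2 or 3 or subcortical mouse 1 or 2 (edgeR adjusted p = 0.054, 0.063, 0.098, 0.12 and 0.057), with log2 fold changes of -0.62 to -0.49, and on raw library totals (-0.38, or -0.58 against the median of all genes, edgeR adjusted p = 0.19). Oligodendrocyte lineage markers moved the same way: they summed to 5340, 2940, 2670 and 2120 CPM in subcortical mice 1 to 4, and subcortical mouse 1 was highest in both. Their part in the Slc39a12 values was not tested. Without that library the log2 fold change of Slc39a12 was -0.49.

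**Figure D2:**
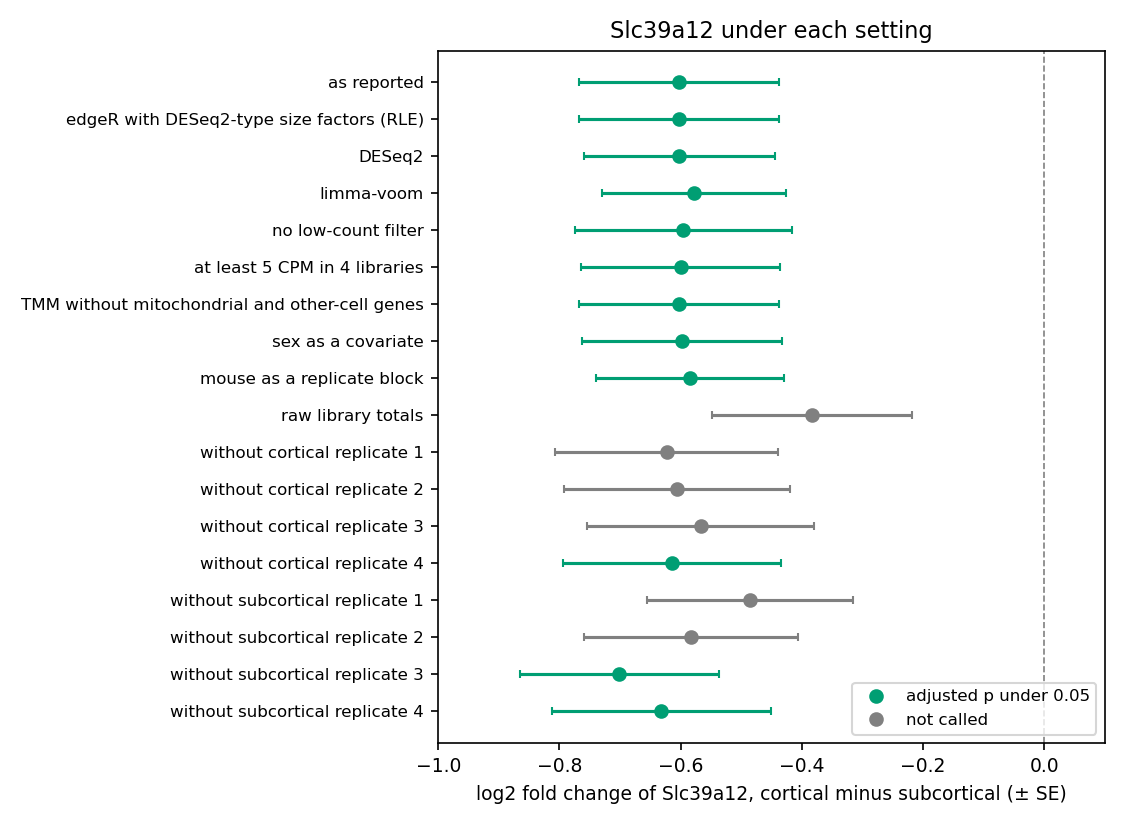
Log2 fold change of Slc39a12, cortical minus subcortical (± SE), as reported and under other settings. Points are green where the adjusted p was under 0.05 and grey where it was not. The threshold of 0.01 and the test against a fold of 1.5, under which Slc39a12 was not called, are not drawn. All values are below 0, and the value on raw library totals, -0.38, is nearest to it.

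The other 3 importers were lower in level. Slc39a1 (ENSMUSG00000052310), which encodes the widely expressed ZIP1, stood at 48.07, 71.76, 45.5 and 45 CPM in cortical and at 54.58, 57.3, 59.03 and 63.12 CPM in subcortical mice 1 to 4. Only cortical mouse 2 stood above the subcortical range, and the log2 fold change was -0.16 (SE 0.22, 95% interval -0.62 to 0.31, edgeR adjusted p = 0.81). Slc39a14 (ENSMUSG00000022094), whose product carries manganese, iron and zinc, stood at 19.97, 16.32, 16.94 and 28.24 CPM in cortical and at 22.74, 11.46, 21.53 and 26.02 CPM in subcortical mice 1 to 4, with a log2 fold change of -0.01 (SE 0.33, 95% interval -0.71 to 0.68, edgeR adjusted p = 0.99). Counts per library were 24 to 118.

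Slc39a10 (ENSMUSG00000025986), which encodes the plasma membrane zinc importer ZIP10, had the largest fitted difference of the 9 genes. It stood at 28.35, 26.42, 16.48 and 35.66 CPM in cortical and at 23.15, 16.24, 12.85 and 11.63 CPM in subcortical mice 1 to 4. Cortical was higher in all 4 mice, by 0.28 to 1.54 on the log2 scale, and the regions overlapped. The log2 fold change of 0.75 (SE 0.34, 95% interval 0.05 to 1.45) was not called (edgeR adjusted p = 0.24), with 34 to 149 counts per library.

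**Figure D3:**
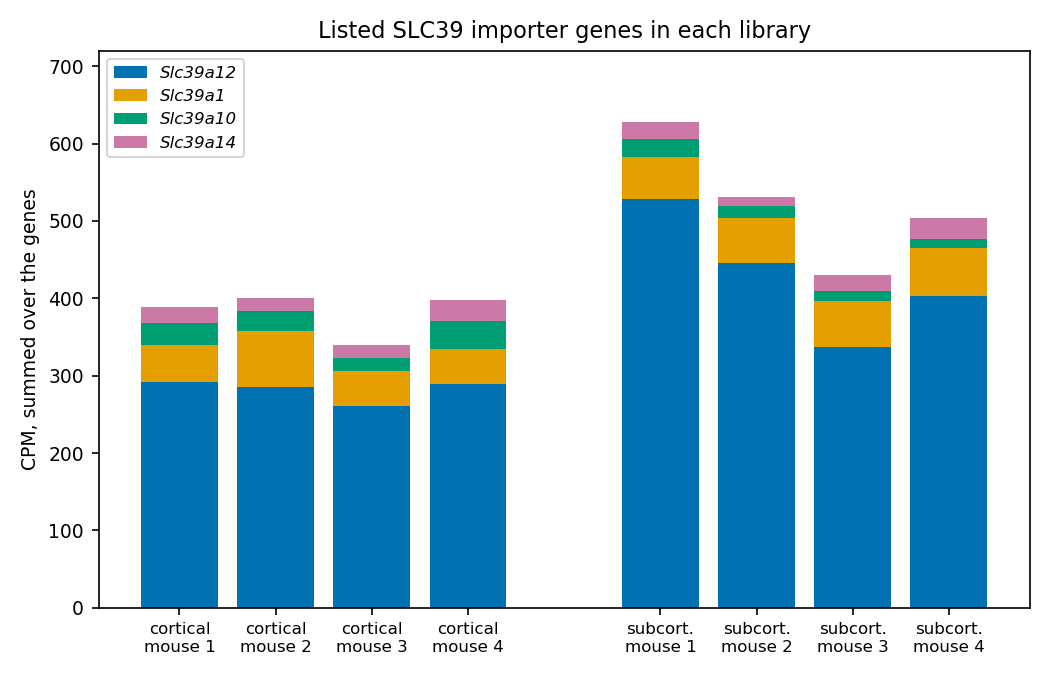
Stacked bars of the level (CPM) of the 4 listed SLC39 importer genes in each library. Slc39a12 makes up 71.4 to 76.8% of the stack in cortical and 78.3 to 84.0% in subcortical libraries, and the subcortical stacks (430.6 to 628.5 CPM) all exceed the cortical ones (340.1 to 400.3 CPM).

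Summed over the 4 listed importers, the level was 381.8 ± 28.3 CPM in cortical against 523.4 ± 81.9 CPM in subcortical libraries (mean ± SD, n = 4). The sum of the 2 exporters was 275.4 ± 29.4 and 310.2 ± 41.3 CPM, with ranges that overlapped. The sum of the 10 other SLC39 genes ran the other way, at 189 to 234 CPM in cortical and 150 to 183 CPM in subcortical libraries, without overlap. Of these genes Slc39a5 had 0 counts and Slc39a7 had 0 cortical and 1 subcortical counts, so they added almost nothing to the sum. The single genes did not all go that way, as Slc39a8 and Slc39a13 had lower means in cortical cells. Of the 6 tested, 0 were called. These sums describe the listed genes and were not tested.

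Slc30a1 and Slc39a10 mirrored each other across libraries. Cortical mouse 4 had the lowest Slc30a1 (84.96 CPM) and the highest Slc39a10 (35.66 CPM), and subcortical mice 3 and 4 had the highest Slc30a1 (170.2 and 167.5 CPM) and the lowest Slc39a10 (12.85 and 11.63 CPM). Of the 36 pairs of listed genes this pair, singled out after its values were seen, had the most negative Pearson correlation of log2 levels, -0.94 over the 8 libraries and -0.88 for deviations from the region means. The 8 libraries come from 4 mice and share their scaling, so the value is a description with no p. Mt1 and Mt2 had 0.56 over the 8 libraries and 0.70 within regions.

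**Figure D4:**
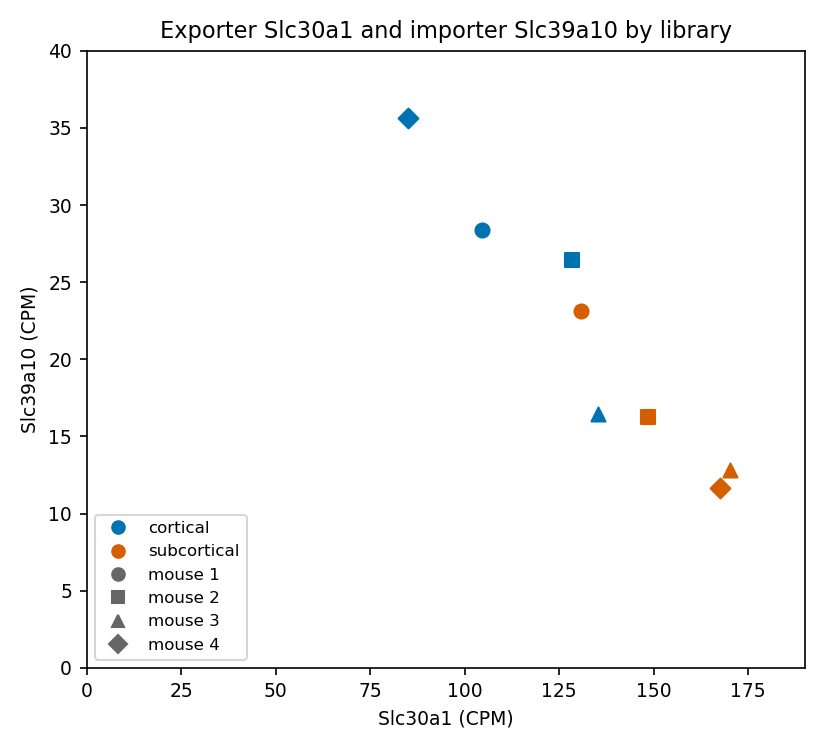
Level of Slc39a10 (CPM, vertical axis) against that of Slc30a1 (CPM, horizontal axis) in the 8 libraries, coloured by region and with a symbol for each mouse. The points fall from cortical mouse 4 at the upper left to subcortical mice 3 and 4 at the lower right.

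Of the other zinc carrier genes, 18 in the lists, 11 had enough counts to be tested and 0 were called by edgeR or by DESeq2. At an unadjusted p under 0.05 there was 1, Slc39a11, which encodes an intracellular importer and stood at 34.02 against 18.32 CPM (log2 fold change 0.89, edgeR adjusted p = 0.15). The other tested SLC30 exporters, Slc30a4, Slc30a5, Slc30a6, Slc30a7 and Slc30a9, which serve mainly intracellular compartments, had a median log2 fold change of -0.105, and the 6 SLC39 importers one of 0.28. Slc39a9, a Golgi importer gene, was the most abundant of these at 82.72 against 71.12 CPM. Slc30a3, the synaptic vesicle zinc transporter of neurons, had 2 counts over the 4 cortical and 1 over the 4 subcortical libraries. Slc30a2, Slc30a8 and Slc39a5 had 0 counts in all libraries, where 0 allows 0.70 to 1.43 CPM in a single library, for counting error only.

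**Figure D5:**
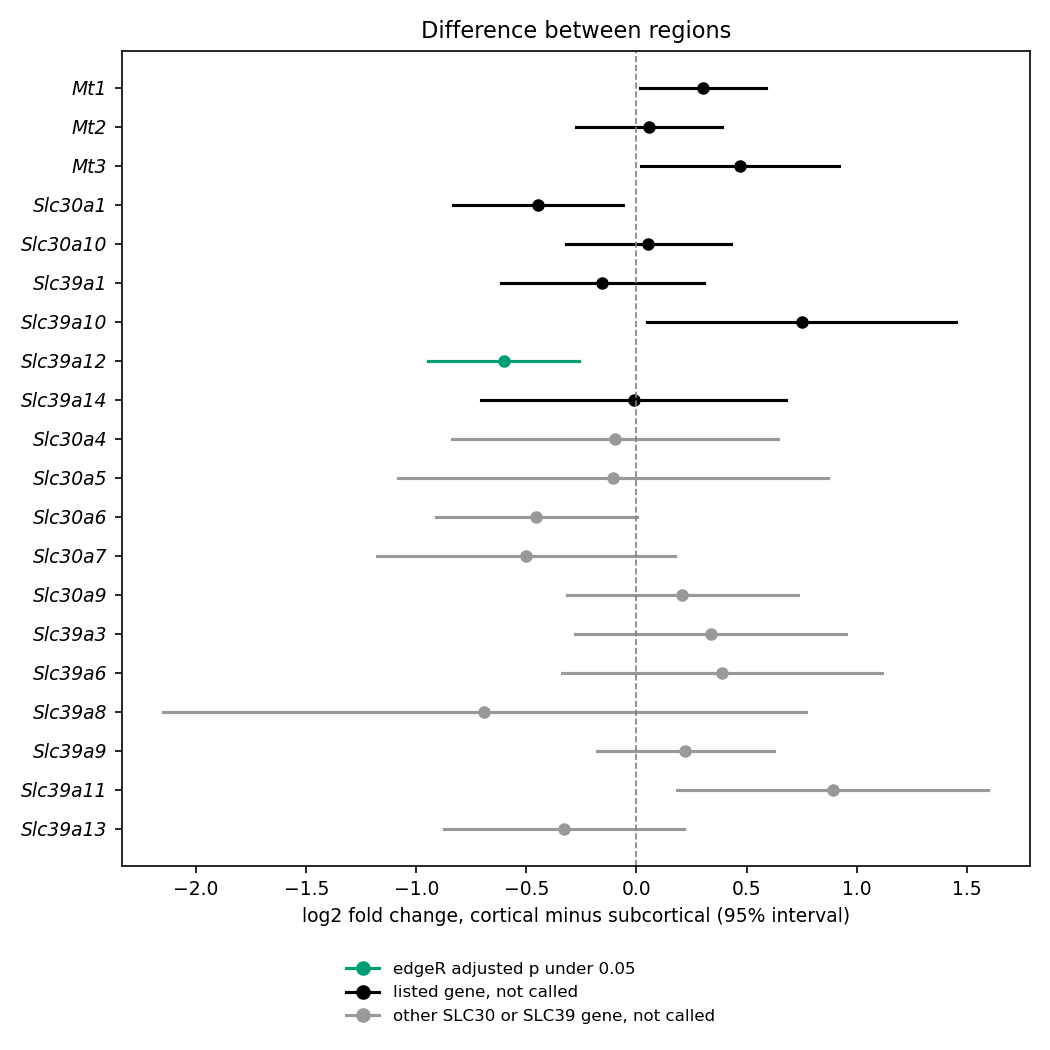
Log2 fold change, cortical minus subcortical, with its 95% interval for the 9 listed genes and the 11 other tested SLC30 and SLC39 genes. Only the interval of Slc39a12, drawn in green, belongs to a called gene.

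Mtf1, the gene of the metal-sensing factor, stood at 16.84 against 19.09 CPM (log2 fold change -0.18, edgeR adjusted p = 0.87), and with Trpm7 and Mcoln1, genes of channels that also pass zinc, 0 of 3 tested genes were called by edgeR or DESeq2, and 0 had an unadjusted p under 0.05. Mt4, the metallothionein gene of squamous epithelia, and the zinc receptor gene Gpr39 had 0 counts. Of 10 copper handling genes 0 were called by edgeR or DESeq2 and 1 had an unadjusted p under 0.05, the superoxide dismutase gene Sod1 at 371.8 against 278.7 CPM (edgeR adjusted p = 0.15), while 1 was called on raw library totals. Of 8 iron and manganese handling genes 2 were lower in cortical cells and 0 higher. These were Heph, the hephaestin ferroxidase gene, at 38.29 ± 4.588 against 103.2 ± 22.41 CPM (log2 fold change -1.43, edgeR adjusted p = 9.8e-05), and Trf, the transferrin gene, at 52.44 ± 10.97 against 120.3 ± 40.68 CPM (SD, n = 4, log2 fold change -1.20, edgeR adjusted p = 0.0016). Both are known to be expressed by oligodendrocytes, whose markers were lower in cortical libraries by the sums given above, and the part of those cells was not tested.

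Between female and male mice 0 of the 9 genes were called by edgeR or by DESeq2, against 0.0424% of all tested genes with edgeR (5 genes). At an unadjusted p under 0.05 there were 0 of the 9, against 4.44% of all tested genes. The largest fitted differences, female minus male, were -0.54 (SE 0.33) for Slc39a14, at 16.56 in female against 24.24 CPM in male libraries, and -0.41 (SE 0.34) for Slc39a10, at 18.0 against 24.7 CPM (edgeR adjusted p = 1 for both). For the dependence of the region difference on sex, 0 of the 9 were called by edgeR or DESeq2 and 0 had an unadjusted p under 0.05, against 0% called and 3.42% with such a p among all tested genes. For Mt1 the female minus male value was 0.02 (SE 0.14), with 2 mice per sex, so a p over the threshold does not show that the sexes are alike. The fit for sex had no term for the mouse, so the 2 libraries of a mouse counted as separate replicates of its sex. With counts summed per mouse, 0 of the 9 genes were called by sex.

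The genes whose levels followed a listed gene most closely were taken from 7808 genes with a mean of at least 10 CPM, by Pearson correlation of log2 levels over the 8 libraries of 4 mice, which share scaling and region, so that no p is given. For Mt2 these were Nfe2l1 (0.97), Hepacam (0.955) and Il10rb (0.912), none of them called by region. For Mt1 they were Myom3 (0.959), Ergic3 (0.948) and Jakmip2 (0.943), of which Myom3 was higher in cortical cells (log2 fold change 2.64, edgeR adjusted p = 0.004) and the other two were not called. For Mt3 they were Igfbp2 (0.974), Ddb1 (0.927) and Ndufa8 (0.925), none of them called. For Slc39a12 they were Lrrc4c (0.972), Mmp14 (0.962) and Pltp (0.952), all lower in cortical cells (edgeR adjusted p = 0.0027, 8.3e-05 and 0.019), with log2 fold changes of -1.17 for Lrrc4c and -1.29 for Mmp14.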

How the data were processed

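Messenger RNA of 8 libraries was read at the 3′ end with a forward QuantSeq kit, per the labels' protocols. Per the submitters' processing notes, the authors used the build GRCm39 with STAR 2.6.0, and also list HTSeq 0.9.0, FastQC 0.11.5 and DESeq2 1.35.0. Settings, strand and molecular identifiers were not given in sources used here. The deposited tables hold whole-number counts for 55417 gene rows, and the 5 closing summary rows stayed out; reads of no feature were 30.2 to 40.7% and multiply aligned reads are listed as 0. The 8 columns of a normalized table were not used. Symbols matched for 52083 rows.

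CPM were computed on all gene counts with TMM factors. The main test was edgeR 4.0.16 (R 4.3.3), filterByExpr (10 counts in 4 libraries, scaled for size, 15 in total), quasi-likelihood, 4 libraries against 4, adjusted over all tested genes; sex and its interaction with region came from 1 fit with a mean per sex and region. The fits were tested on simulated data, with changes given to genes drawn from all tested genes. The region fit called 5% of simulated log2 changes of 0.6, 32.3% of those of 1 and 79.7% of those of 2. It also called 0.03% of unchanged genes. A gene of this report that was not called is therefore not shown to be alike in the 2 regions. Alternatives were DESeq2 1.42.0, limma 3.58.1 (voom), other scalings, filters and thresholds, sex or mouse as a term, and each library left out; raw library totals were added after seeing the data.

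The genes and lists were chosen with earlier results of these data known. By the naming rule all 9 genes and any SLC30 or SLC39 gene are named. It also covers the called members of each pathway list (up to 4 with the smallest p). The 3 genes of at least 10 CPM closest to each of Mt1, Mt2, Mt3 and Slc39a12 are named too. Mtf1, Trpm7, Mcoln1, Mt4, Gpr39, Sod1, Gclm and the markers Slc1a2, Slc1a3, Aqp4, Ndrg2, Ttr and Foxj1 were named after their values were seen.

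The mouse numbers in the titles, taken to name 1 animal each, pair the regions. Deviations from region means correlated at 0.0248 to 0.0657 within a mouse and at -0.0936 to 0.0523 between mice. Libraries of a region differed by more than counting noise, with a chi-square of 12.2 to 25.2 for each degree of freedom, and each was 1 replicate.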

Additional observations from a re-analysis of the deposited data

Results flagged for a closer look

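In 3 of the 18 sets of 4 libraries (9 genes in each region) 1 library stood apart from the other 3 by more than the 95% limit of Dixon's gap test. For a single set of normally distributed values chance gives about 1 in 20. The 18 sets share 8 libraries and their scaling, and the share over all tested genes was not computed. The count of 3 is therefore not read as an excess. Mt1 was low in subcortical mouse 3, at 3628 CPM against 4367 to 4394 in the other 3, and this library also had the highest sum of ependymal and choroid plexus markers (726 CPM), whose part was not tested. Mt2 was high in cortical mouse 2, at 3470 CPM against 2915 to 2950. Slc39a1 was high in the same library, at 71.76 CPM against 45 to 48.07.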

How the results depend on the processing

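Against a fold of 1.5, 0 of the 9 genes and 333 of all genes were called by region, and at an adjusted p under 0.01, 0 and 477. On raw library totals 2 of the 9 were called (Mt1 and Mt3) and 926 of all genes, 682 higher and 244 lower in cortical cells against 403 and 399 as reported. Without single libraries 0 to 1 of the 9 and 614 to 775 genes were called. With the mouse as a replicate block 1 of the 9 and 886 genes were called, 770 of them shared with the 802 reported, and the block changed no call among the 9 genes (Slc39a12 -0.585, adjusted p = 0.02), while Slc39a14 turned to 0.013. With DESeq2, limma-voom, DESeq2-type size factors, both other filters, TMM without mitochondrial and other-cell genes, or sex as a term, 1 of the 9 was called each time. Genes near 0 changed sign: on raw library totals Slc39a1 (0.044) and Slc39a14 (0.171), and without single libraries Mt2 (range -0.053 to 0.162), Slc30a10 (-0.038 to 0.212) and Slc39a14 (-0.211 to 0.126). The cause was not tested. Mt1, Mt3, Slc30a1, Slc39a10 and Slc39a12 kept their direction in all 19 alternatives. The summed metallothionein level did not overlap between regions on raw library totals (8428 to 9861 against 6299 to 7112 CPM) and did as reported (7689 to 9283 against 5966 to 8061 CPM). For sex and its interaction with region 0 of the 9 were called in every alternative run. In depth, 1 count was worth 0.232 to 0.478 CPM, depending on the library, against levels of 11.5 to 35.7 CPM for Slc39a10 and Slc39a14.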

Other observations

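The lists that follow hold genes known to share inducers with the metallothioneins, and 6.81% of all tested genes were called by region. Of 8 tested glucocorticoid-induced genes 1 was lower in cortical cells, the cell cycle inhibitor gene Cdkn1a at 10.51 ± 10.27 against 39.31 ± 9.228 CPM (n = 4, ± SD, edgeR adjusted p = 0.03), and its call was lost with DESeq2 and without cortical 2 or 3 or subcortical 1 or 4, where 0 of the list were called. Of 7 genes induced by NRF2, the oxidative stress factor, 0 were called by edgeR or DESeq2, and 1 had an unadjusted p under 0.05, the glutathione synthesis gene Gclm at 54.93 against 38.34 CPM.

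Of 5 tested genes of the interleukin-6 family response, which induces metallothioneins and Slc39a14 in liver, 1 was lower in cortical cells and 1 higher. Il6st, the gene of the shared receptor subunit gp130, stood at 47.41 ± 7.355 against 98.62 ± 14.68 CPM (n = 4, ± SD, edgeR adjusted p = 0.0016). Cd44, a hyaluronan receptor gene, stood at 19.77 ± 2.903 against 7.302 ± 2.779 CPM (n = 4, ± SD, edgeR adjusted p = 0.034), and without any 1 cortical library or subcortical 1, and with limma-voom, 0 of the list were higher. Of 8 immediate early and dissociation genes Jun was higher in cortical cells, at 77.59 ± 16.6 against 39.72 ± 6.996 CPM (n = 4, ± SD, edgeR adjusted p = 0.0099), and 2 of the list were higher with DESeq2, with the mouse as a block, on raw library totals and without subcortical 3. Microglia markers, by the counts given above, were also called higher in cortical cells, and their part in the Cd44 and Jun values was not tested.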
